A study of Arabidopsis thaliana with 6 samples.

Results

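The 10 genes described here encode transcription factors through which plants respond to light and a pair of light-stress proteins of the chloroplast, in Arabidopsis thaliana stems. They were taken by locus from the 24434 genes of the deposited table: PIF1, PIF3, PIF4, PIF5, PIF7, HY5, HYH, HFR1, ELIP1 and ELIP2, and all 10 were found. RNA sequencing had been done on stems of 3 wild-type (WT) and 3 transgenic plants, the latter overexpressing Bnt07G011994, all of the Columbia ecotype. The labels give a greenhouse at 22 °C, a day of 15 h light and 9 h dark, stems of about 10 cm, and 1 plant per sample. They do not give the species or product of the overexpressed gene, its promoter, the number of transgenic lines, or the hour at which a stem was cut.

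In the dark, phytochrome-interacting factors (PIFs), which are basic helix-loop-helix proteins, accumulate and drive elongation. Light-activated phytochromes bind them and lead most of them to degradation. HY5 and its homologue HYH are bZIP factors that act in the opposite sense, stabilised in light and degraded in darkness through the COP1 ubiquitin ligase. HFR1 is an atypical helix-loop-helix protein that pairs with PIFs and keeps them from DNA. ELIP1 and ELIP2, the early light-induced proteins, are relatives of the light-harvesting proteins that accumulate in thylakoids under strong light, and their induction by light is known to need HY5. PIFs and HY5 both bind the G-box, CACGTG, and PIF4 and PIF5 transcripts are known to cycle over the day in seedlings.

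The start regions of PIF4 and PIF5 and of ELIP1 and ELIP2 are printed, because the results turn on these pairs and because the G-box is a letter pattern that both PIFs and HY5 bind. Each line gives the 250 bases before the annotated start, 5′ to 3′ on the strand of the gene, from RefSeq TAIR10.1, with the G-box in capitals. PIF4 lies on the plus strand (chr2:17885851-17886100), PIF5 on the minus strand (chr3:21830838-21831087), ELIP1 on the minus strand (chr3:8085670-8085919) and ELIP2 on the plus strand (chr4:8417992-8418241).
PIF4: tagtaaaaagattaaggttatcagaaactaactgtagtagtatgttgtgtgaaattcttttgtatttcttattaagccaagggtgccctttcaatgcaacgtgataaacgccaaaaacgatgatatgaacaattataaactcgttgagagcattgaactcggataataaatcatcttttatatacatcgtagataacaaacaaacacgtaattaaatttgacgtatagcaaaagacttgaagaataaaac
PIF5: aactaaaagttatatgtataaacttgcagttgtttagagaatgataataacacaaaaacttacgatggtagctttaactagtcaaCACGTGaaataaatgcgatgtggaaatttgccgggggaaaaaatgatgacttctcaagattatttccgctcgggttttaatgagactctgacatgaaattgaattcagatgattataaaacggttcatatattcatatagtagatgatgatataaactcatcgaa
ELIP1: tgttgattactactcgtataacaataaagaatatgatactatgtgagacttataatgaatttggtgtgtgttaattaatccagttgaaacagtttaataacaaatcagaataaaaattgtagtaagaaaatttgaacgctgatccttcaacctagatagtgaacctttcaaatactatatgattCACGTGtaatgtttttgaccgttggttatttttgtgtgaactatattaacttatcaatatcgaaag
ELIP2: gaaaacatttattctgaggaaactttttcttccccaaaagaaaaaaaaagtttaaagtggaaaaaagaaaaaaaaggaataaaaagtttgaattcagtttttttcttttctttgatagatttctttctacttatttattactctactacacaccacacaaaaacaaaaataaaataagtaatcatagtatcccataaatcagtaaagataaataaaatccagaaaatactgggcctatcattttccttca
One member of each pair held the G-box, PIF5 at position -165 and ELIP1 at position -66 from the start, and its partner did not. The search took 250 bases before to 50 bases after the start. In that window 2 of the 10 genes held CACGTG, against 8.48% of 23203 nuclear protein-coding genes of the table. CACATG, the related PBE-box, was found on either strand in PIF7, at positions 19 and 21 on opposite strands, and in HY5 at position -138, against 12.8% of all windows. The ACGT core, which every G-box contains, was in 6 of the 10 windows, 4 times in PIF4, and in 50.4% of all windows. The evening element AAAATATCT was in none of the 10 and in 2.96% of all windows. These are letter matches in a short window and were not tested for binding.

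Levels are given in FPKM, fragments per kilobase of transcript scaled to library size, so that genes of different length can be compared. The libraries held 44597288 to 45642240 reads assigned to genes. WT replicate 1 stood apart, with Spearman correlations across genes of 0.875 to 0.940 to the other libraries, whereas WT replicates 2 and 3 correlated at 0.997 and the remaining pairs at 0.971 to 0.985. WT replicates 2 and 3 differed by 1.78 times sampling noise, against 2.94 to 10.0 times in all other pairs, and were kept as separate plants as the labels give them. Fits with and without WT replicate 1 are therefore both given. Markers of stem were present in all libraries, with CESA4, a cellulose synthase of fibres and vessels, at 37.1 FPKM in WT replicate 1 and 195 to 306 FPKM elsewhere. The 7 stem markers summed to 339 FPKM in WT replicate 1, up to 1184 in WT and 976 to 1273 in overexpressor stems. Flower and anther markers summed to 1.49 to 3.91 FPKM in WT stems and 1.84 to 3.89 in overexpressor stems, seed markers to 0.0120 to 0.0245 and 0 to 1.41, and root markers to 6.85 to 8.41 and 6.41 to 8.27, nearly all of the last from SCR. Of the 17 markers of these 3 tissues, 14 were analysed here, and none of the 14 was at 0 in all libraries.

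**Figure D1:**
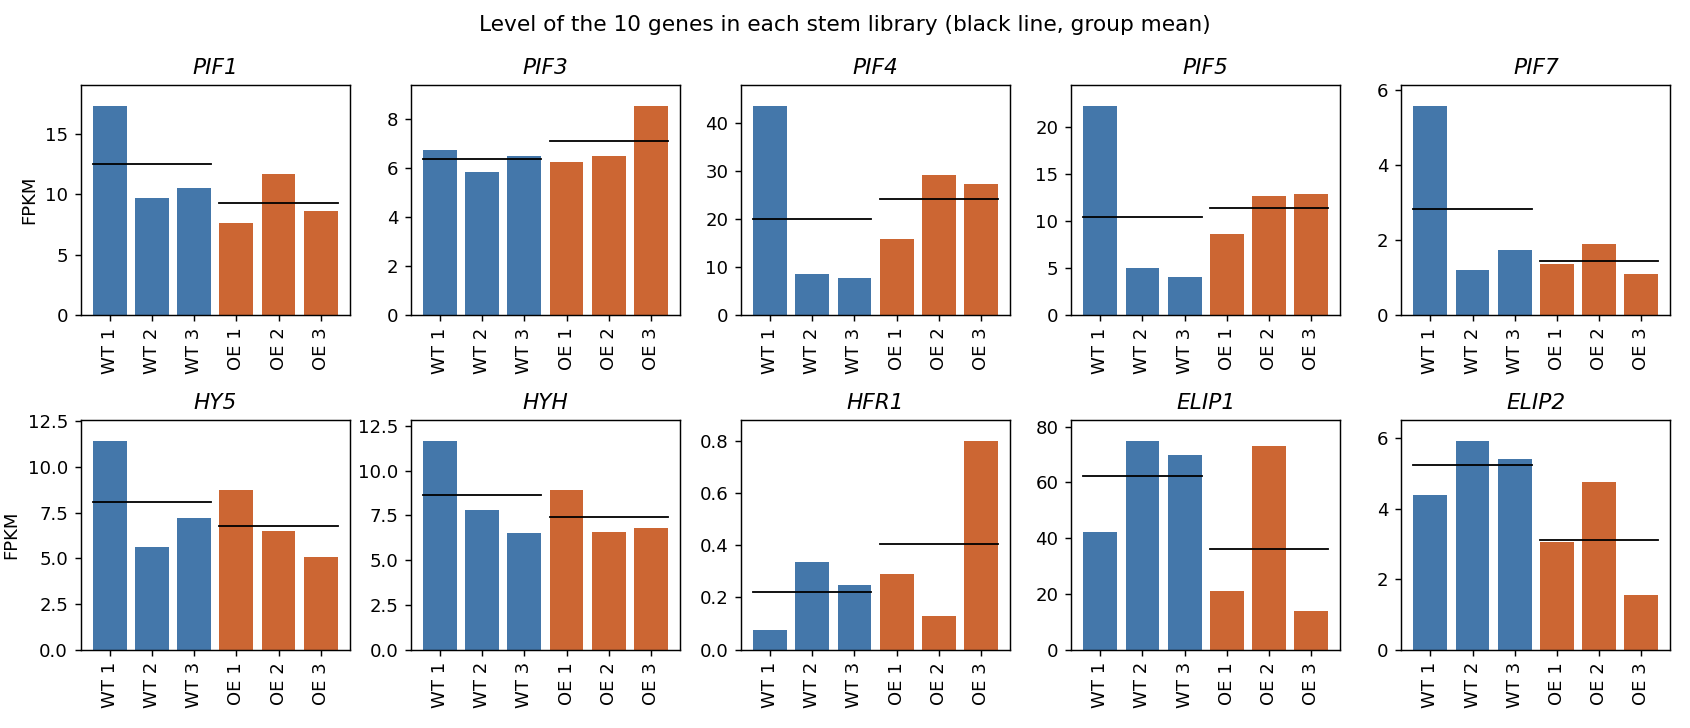
FPKM (y axis, from 0, a separate scale for each gene) of the 10 genes in each library (x axis; WT 1 to 3 in blue, overexpressor, OE 1 to 3, in orange), with a black line at the mean of each group. WT 1 is the highest library for PIF1, PIF4, PIF5, PIF7, HY5 and HYH, while ELIP1 and ELIP2 are lowest in OE 3 and OE 1.

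PIF4 and PIF5 gave the widest spread in WT among the 9 genes tested, and 3 levels could be seen. PIF4 (AT2G43010; TAIR10.1 chromosome 2, 17886101 to 17889087, plus strand), a PIF that promotes stem and petiole growth in warmth and shade, had values of 43.6, 8.49 and 7.64 FPKM in WT replicates 1, 2 and 3. In overexpressor replicates 1, 2 and 3 it stood at 15.9, 29.1 and 27.2 FPKM. All 3 overexpressor libraries thus lay between WT replicate 1 above and the other WT pair below. Group means were 19.9 ± 20.5 FPKM in WT stems and 24.1 ± 7.14 FPKM in overexpressor stems (mean ± SD, n = 3 each). In the model fitted to all genes (limma on log2(FPKM + 1)), the log2 fold change of PIF4 was 0.66 (SE 0.67, 95% interval -0.97 to 2.29, limma adjusted p = 0.807).

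PIF5 (AT3G59060, PIL6 in RefSeq; chromosome 3, 21827905 to 21830837, minus strand), the closest relative of PIF4 and its partner in shade growth, showed the same order of groups. It stood at 22.2, 4.93 and 4.05 FPKM in the WT libraries and at 8.62, 12.6 and 12.8 FPKM in overexpressor stems. Again WT replicate 1 was highest and the other WT pair lowest, with means of 10.4 ± 10.2 and 11.3 ± 2.36 FPKM (mean ± SD, n = 3 each). The log2 fold change was 0.46 (SE 0.59, 95% interval -0.99 to 1.91, limma adjusted p = 0.838). In bulk stems, a change in the number of cells that express a gene and a change in RNA per cell cannot be told apart.

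Without WT replicate 1 the log2 fold changes were 1.42 for PIF4 (SE 0.25, 95% interval 0.81 to 2.04) and 1.16 for PIF5 (SE 0.18, 95% interval 0.71 to 1.60). Neither passed the threshold of 0.05 after adjustment over all genes (limma adjusted p = 0.145 and 0.102). Unadjusted p-values in that fit were 0.00130 for PIF4 and 0.000736 for PIF5, with WT replicates 2 and 3 alone as the WT side. These 2 libraries differed by 1.78 times sampling noise, against 2.94 to 10.0 times in all other pairs. The WT spread in that fit, and with it the SE and p-values, may therefore understate the spread between plants. The overexpressor mean was 2.99 times that of WT replicates 2 and 3 for PIF4 and 2.53 times for PIF5, and WT replicate 1 was 5.41 and 4.95 times that pair. The order seen in both genes, WT replicate 1 above all overexpressor libraries and these above the other WT libraries, was noticed in the values. It held for 2 of the 10 genes and for 5.64% of the 16870 genes tested.

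PIF4 and PIF5 also kept close to each other within each library. The ratio of PIF4 to PIF5 in FPKM was 1.96, 1.72 and 1.89 in WT replicates 1, 2 and 3 and 1.84, 2.31 and 2.13 in overexpressor replicates 1, 2 and 3, while the level of PIF4 spanned 7.64 to 43.6 FPKM. Likeness of profiles was measured as the root-mean-square difference of mean-centred log2(FPKM + 1) over the 6 libraries, with genes of a mean of at least 5 FPKM as candidates. By this measure PIF5 was nearer to PIF4 (0.159) than any of 12606 other candidates, and PIF4 nearer to PIF5 than any. The next for PIF4 were AT1G19960 (0.193) and AT1G51090 (0.200), and for PIF5 AT1G11210 (0.168) and AT2G23840 (0.176). The longest match between their exons was 405 bp at 80.0% identity, of 2597 bp in PIF4 and 2561 bp in PIF5, and 75.3% of aligned coding bases were identical. Sharing of reads between them was not tested.

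Clock genes were also highest in WT replicate 1. GI, a daytime clock gene, stood at 94.7, 6.85 and 6.98 FPKM in WT stems and at 24.3, 44.2 and 30.9 FPKM in overexpressor stems, which lay between WT replicate 1 and the other WT pair, as in PIF4. CCA1, a morning factor of the clock, stood at 19.8, 2.51 and 2.82 FPKM in WT stems and 2.67, 4.91 and 3.81 FPKM in overexpressor stems, LHY, its homologue, at 0.467 to 1.18 FPKM over all 6 libraries, and TOC1, an evening gene, at 155, 112 and 106 FPKM and 104, 123 and 114 FPKM. Over the 9 clock genes listed, 8 were tested and WT replicate 1 was the highest library in all 8. Their summed level was 721 FPKM in WT replicate 1, 183 FPKM in the lowest WT library and 269 to 383 FPKM in overexpressor stems. ELF4 and LUX, parts of the evening complex that is known to repress PIF4 and PIF5, were also highest in WT replicate 1, at 207 and 14.4 FPKM, against 40.3 to 102 FPKM and 5.73 to 12.1 FPKM elsewhere. The part of clock gene levels in the PIF4 and PIF5 values was not tested.

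**Figure D2:**
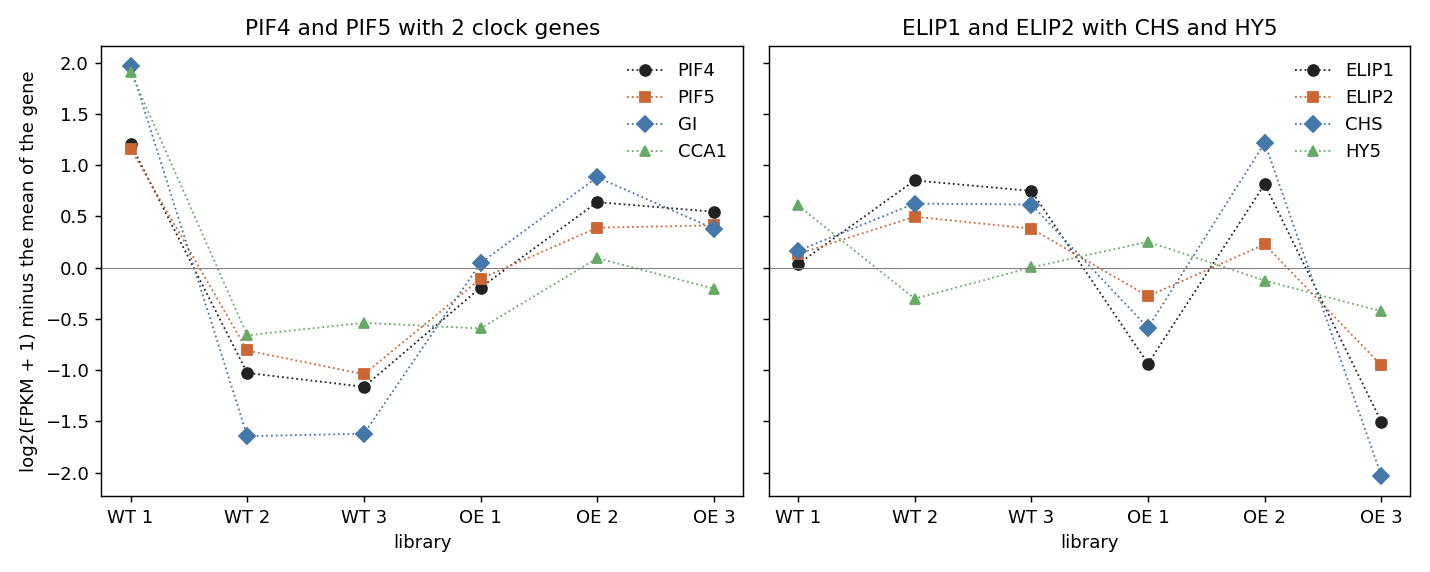
Mean-centred log2(FPKM + 1) (y axis) in the 6 libraries (x axis; OE, overexpressor) of PIF4 and PIF5 with the clock genes GI and CCA1 (left) and of ELIP1 and ELIP2 with CHS and HY5 (right); dotted lines only join the points of a gene. PIF4 and PIF5 follow each other through all libraries, and ELIP1, ELIP2 and CHS all have their lowest values in OE 3 and OE 1.

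The other 3 PIF genes among the 10 had log2 fold changes whose intervals included 0 with and without WT replicate 1. PIF1 (AT2G20180, PIL5 in RefSeq; chromosome 2, 8704024 to 8707009, minus strand), known for holding back germination and chlorophyll synthesis in the dark, stood at 17.3, 9.66 and 10.6 FPKM in WT stems and 7.62, 11.7 and 8.61 FPKM in overexpressor stems. WT replicate 1 was highest, and the remaining libraries of both groups overlapped. The log2 fold change was -0.37 (SE 0.25, 95% interval -0.98 to 0.25, limma adjusted p = 0.805), and -0.13 without WT replicate 1. Its exons share 134 of 2344 bp with AT2G20170 on the opposite strand, a locus not analysed here. The nearest profiles to PIF1 were those of AT5G59700 (0.050) and AT1G73040 (0.0505).

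PIF7 (AT5G61270; chromosome 5, 24638491 to 24640765, minus strand), a PIF of the shade response, was the lowest of the 5. It stood at 5.57, 1.19 and 1.72 FPKM in WT stems and 1.35, 1.88 and 1.09 FPKM in overexpressor stems, where only WT replicate 1 stood apart. The log2 fold change was -0.49 (SE 0.42, 95% interval -1.52 to 0.55, limma adjusted p = 0.805), and -0.01 without WT replicate 1 (95% interval -0.47 to 0.44). Of its 1953 bp of exons, 318 bp overlap AT5G61260 on the other strand, which was at 0.146 to 0.190 FPKM. AT1G55960 (0.0868) and the F-box gene AFR (0.115) had the profiles most like PIF7.

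PIF3 (AT1G09530; chromosome 1, 3075768 to 3079654, plus strand), the founding PIF, which acts in early seedling greening, had the smallest ratio of highest to lowest library within WT of the 10 genes. It stood at 6.75, 5.86 and 6.51 FPKM in WT stems and 6.25, 6.48 and 8.55 FPKM in overexpressor stems, with overexpressor replicate 3 highest. Its log2 SD in WT was 0.09, at percentile 22.5 of the genes tested, against 98.3 for PIF4 and 97.6 for PIF5. In the overexpressor its log2 SD was 0.22, at percentile 74.8. The log2 fold change was 0.12 (SE 0.14, 95% interval -0.21 to 0.46, limma adjusted p = 0.816), and near 0 without overexpressor replicate 3. The nearest profiles were those of AT4G21215 (0.0367) and LCAT3 (0.0413).

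The 5 PIF genes described here thus changed their make-up between libraries. Summed over these 5 genes only, transcripts came to 95.5, 30.1 and 30.5 FPKM in WT stems and to 39.7, 61.7 and 58.3 FPKM in overexpressor stems. PIF4 made up 45.7, 28.2 and 25.1% of that sum in the WT libraries and 40.0, 47.1 and 46.7% in overexpressor stems. In WT replicates 2 and 3, PIF1 was the highest of these 5 and PIF4 came next, whereas PIF4 led the 5 in the other 4 libraries. PIF8, a further PIF gene, is not in the sum. It stood at 18.2, 45.5 and 43.9 FPKM in WT stems and 29.9, 29.9 and 25.9 FPKM in overexpressor stems. Its lowest library was WT replicate 1, where the sum of the 5 was highest. PIF8 was above all 5 in WT replicates 2 and 3 and in overexpressor replicates 1 and 2.

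HY5 and HYH, which favour the light-grown form, gave no difference between the genotypes beyond the spread of the libraries. HY5 (AT5G11260; chromosome 5, 3593335 to 3595073, minus strand) stood at 11.4, 5.63 and 7.19 FPKM in WT stems and 8.74, 6.49 and 5.09 FPKM in overexpressor stems. HYH (AT3G17609; chromosome 3, 6023844 to 6024710, plus strand) stood at 11.7, 7.78 and 6.53 FPKM in WT stems and 8.91, 6.59 and 6.81 FPKM in overexpressor stems. In both genes WT replicate 1 was highest, overexpressor replicate 1 came second, and the other libraries of the groups overlapped.

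The log2 fold change was -0.20 for HY5 (SE 0.28, 95% interval -0.89 to 0.49, limma adjusted p = 0.849) and -0.17 for HYH (SE 0.22, 95% interval -0.71 to 0.37, limma adjusted p = 0.838). Without WT replicate 1 both turned to just above 0, at 0.05 (95% interval -0.47 to 0.57) and 0.04 (95% interval -0.32 to 0.41). The ratio of HY5 to HYH ran from 0.723 to 1.1 over the libraries, so that the homologues were at about equal level. Their coding sequences were 57.7% identical over 444 aligned bases. HY5 was most like AT3G57020 (0.0840) and CP1 (0.116), and HYH most like ChlAKR (0.0511), a chloroplast aldo-keto reductase, and the chloroplast gene petD (0.0885).

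HFR1 (AT1G02340; chromosome 1, 465616 to 467880, minus strand) was nearly silent and fell below the filter of a mean of 1 FPKM. It stood at 0.0737, 0.334 and 0.249 FPKM in WT, from 5, 23 and 17 reads, and at 0.289, 0.130 and 0.801 FPKM in overexpressor stems, from 20, 9 and 55 reads. The 95% Poisson interval, which covers counting error only, was 0.0239 to 0.172 FPKM in WT replicate 1 and 0.604 to 1.04 FPKM in overexpressor replicate 3. These libraries, lowest and highest, thus differed beyond counting error, while the groups overlapped. With no filter the log2 fold change was 0.18 (SE 0.19, limma adjusted p = 0.816). The other 9 genes had 63 to 5051 reads in each library.

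ELIP1 and ELIP2 had lower means in overexpressor stems, but 1 of its 3 stems was at the WT level. ELIP1 (AT3G22840; chromosome 3, 8084405 to 8085669, minus strand), whose start region with the G-box is printed above, stood at 42.2, 75.0 and 69.8 FPKM in WT. In overexpressor replicates 1, 2 and 3 it stood at 21.02, 73.1 and 13.9 FPKM. Overexpressor replicate 2 was as high as WT replicates 2 and 3, and replicates 1 and 3 were below every WT library. Means were 62.4 ± 17.6 FPKM in WT stems and 36.0 ± 32.3 FPKM in overexpressor stems (mean ± SD, n = 3 each), and the log2 fold change was -1.09 (SE 0.61, 95% interval -2.58 to 0.41, limma adjusted p = 0.805). The log2 SD of ELIP1 in overexpressor stems, 1.21, stood at percentile 99.8 of the genes tested.

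ELIP2 (AT4G14690; chromosome 4, 8418242 to 8419325, plus strand) ran at a lower level in the same direction. It stood at 4.39, 5.93 and 5.39 FPKM in WT stems and 3.05, 4.75 and 1.54 FPKM in overexpressor stems. Overexpressor replicate 2 again reached into the WT range, above WT replicate 1, and the other 2 were below it. Means were 5.24 ± 0.781 and 3.11 ± 1.61 FPKM (mean ± SD, n = 3 each), and the log2 fold change was -0.67 (SE 0.30, 95% interval -1.42 to 0.07, limma adjusted p = 0.805, unadjusted p = 0.0694). Without WT replicate 1 the log2 fold changes were -1.34 for ELIP1 and -0.77 for ELIP2 (limma adjusted p = 0.537 and 0.481), and without overexpressor replicate 2 they were -1.77 and -0.95. Without overexpressor replicate 3, the lowest library for both genes, they were -0.61 and -0.36, and none of these fits gave a call.

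The paired genes did not keep a fixed ratio. ELIP1 was 9.61, 12.7 and 12.9 times the level of ELIP2 in WT replicates 1, 2 and 3 and 6.89, 15.4 and 9.02 times in overexpressor replicates 1, 2 and 3, lowest in the overexpressor stem of replicate 1 and highest in that of replicate 2. A lead of overexpressor replicate 2 over both other overexpressor libraries by at least 2-fold, a pattern noticed in the values, was seen in ELIP1, 1 of the 10 genes, and in 0.64% of the genes tested. Exons of the pair matched over at most 375 bp at 80.0% identity, and 76.0% of 570 aligned coding bases were identical.

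CHS (AT5G13930, TT4 in RefSeq), chalcone synthase, the entry enzyme of flavonoid synthesis and a textbook G-box target of HY5, had the profile most like ELIP1 of all 12606 candidates (0.329). CHS stood at 22.2, 30.9 and 30.7 FPKM in WT stems and at 12.8, 47.1 and 4.06 FPKM in overexpressor stems. Like ELIP1 it was lowest in overexpressor replicates 3 and 1 and high in replicate 2. The second was APT2 (0.399), an adenine phosphoribosyltransferase, while ELIP2 itself was at 0.475 from ELIP1. Nearer than this were 4 candidates to ELIP1 and 3694 to ELIP2. The measure takes in the size of changes as well as their shape, and log2(FPKM + 1) understates changes of low genes such as ELIP2. From low to high, the order of libraries was the same in ELIP1 and ELIP2 except that overexpressor replicate 2 and WT replicate 3 changed places. ELIP2 was most like the borate exporter gene BOR1 (0.223) and the transporter gene ABCG14 (0.224). The HY5 transcript did not share this profile: overexpressor replicate 1, where ELIP1 was low, had the second highest HY5 value. HY5 protein was not measured, and the part of HY5 in the ELIP1 and CHS values was not tested.

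**Figure D3:**
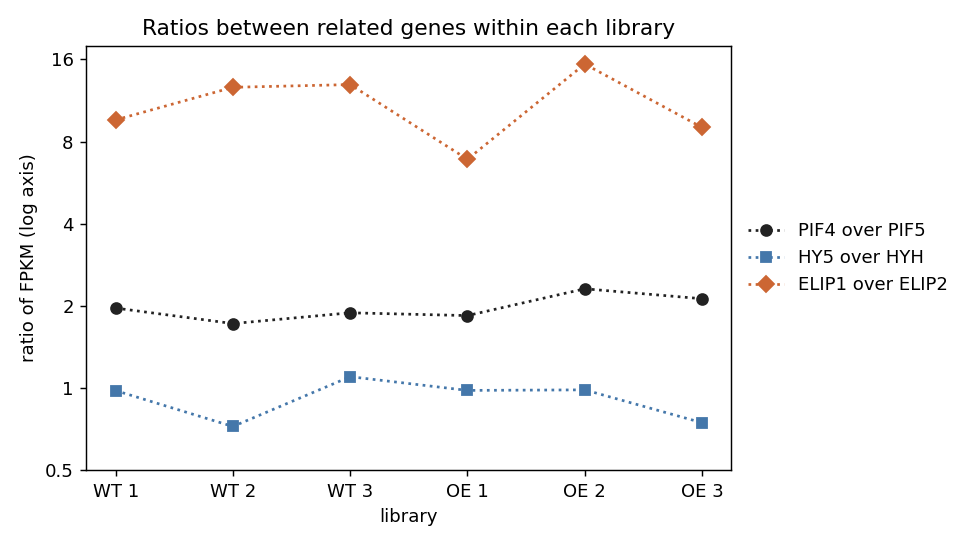
Ratio of FPKM (y axis, log scale) of PIF4 to PIF5, HY5 to HYH and ELIP1 to ELIP2 within each of the 6 libraries (x axis; OE, overexpressor); dotted lines only join the points of a ratio. PIF4 to PIF5 stays between 1.72 and 2.31, while ELIP1 to ELIP2 runs from 6.89 to 15.4.

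Set against all genes, none of the 9 genes that passed the filter was called between the genotypes, and none had groups that did not overlap. The model called 2 of 16870 genes, or 0.0119%, both lower in overexpressor stems, and 14.5% of the genes had groups that did not overlap. An unadjusted limma p under 0.05 was reached by 0 of the 9, against 5.43% of all genes, and voom on recovered reads also called 0. Of the 9 log2 fold changes, 3 were positive and the median was -0.20, against 42.3% positive and a median of -0.04 over all genes tested. Without WT replicate 1, 5 were positive, the median was 0.04 against -0.02 over all genes, and again 0 were called, against 0.136% of all genes. That fit had 2 of the 9 at an unadjusted limma p under 0.05, PIF4 and PIF5, against 1784 of 16865 genes. WT replicate 1 was the highest library in 6 of the 10 genes and in 42.4% of the genes tested.

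With sample quality weights, which let libraries that fit the model poorly count for less, 5 of the 9 genes were called, against 10.5% of all genes. PIF4 (log2 fold change 1.52, limma adjusted p = 0.00670), PIF5 (1.20, limma adjusted p = 0.00965) and PIF3 (0.37, limma adjusted p = 0.050, just under the threshold) were called upward, as were 4.45% of all genes. ELIP1 (-1.99, limma adjusted p = 0.0194) and ELIP2 (-1.21, limma adjusted p = 0.0166) were called downward, as were 6.03% of all genes. In that fit WT replicate 1 had a weight of 0.0837, overexpressor replicates 1 and 2 weights of 0.427 and 0.537, and WT replicates 2 and 3 and overexpressor replicate 3 weights of 6.94, 2.13 and 3.53. The calls therefore rest mainly on 3 libraries.

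**Figure D4:**
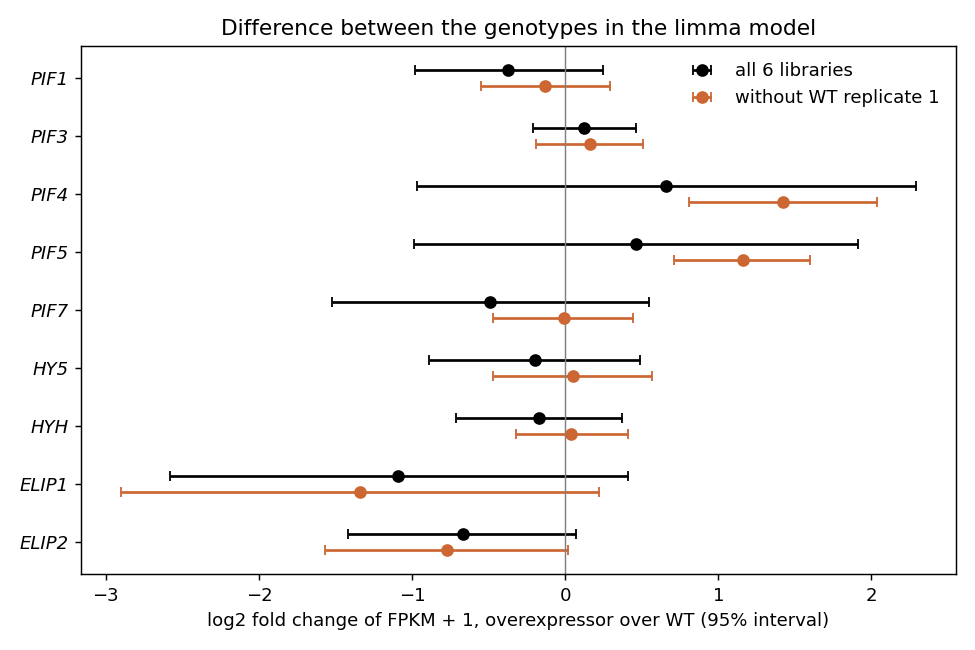
Log2 fold change of FPKM + 1, overexpressor over WT (x axis), for the 9 genes tested (y axis), with 95% intervals from limma, over all 6 libraries (black) and without WT replicate 1 (orange). All 9 intervals include 0 over all libraries, and those of PIF4 and PIF5 lie above 0 without WT replicate 1, where their adjusted p-values were 0.145 and 0.102.

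By mean level the 10 genes had the same order in both groups, except that PIF1 and PIF5, and HY5 and PIF3, changed places. Within each of these pairs of neighbours the ranges overlapped in both groups. ELIP1 had the highest mean and HFR1 the lowest in each group, yet PIF4 exceeded ELIP1 in WT replicate 1 and overexpressor replicate 3. In WT, of the 9 pairs of neighbours in the order of means, only PIF7 and HFR1 had ranges that did not overlap. In the overexpressor, PIF4 and PIF5, HY5 and ELIP2, and PIF7 and HFR1 were separate, and the other neighbours overlapped. PIF1, PIF5, HYH, HY5 and PIF3 all had group means between 6.38 and 12.5 FPKM.

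The wider light pathway was covered by 7 lists with 68 genes, 67 of them in the table and 51 past the filter. None of the 51 was called in either direction by limma without weights or by voom on recovered reads, against 0.0119% of all genes by limma. With sample quality weights 9 of the 51 were called, against 10.5% of all genes. They were BBX24, CAO, BBX22, GUN4, PIF8, CRY1, PORB, FHL and CHS, with 5 called upward and 4 downward. Groups did not overlap in 7 of the 51, against 14.5% of all genes. These 7 were CRY1, SPA4, FHY1, FAR1, GUN4, PORB and LIL3:2. An unadjusted limma p under 0.05 was reached by 3 of the 51, CRY1, SPA4 and PORB, against 5.43% of all genes. All of the 7 except CRY1, PORB and LIL3:2 were named after their values were seen.

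Among 10 photoreceptor genes 3 log2 fold changes were positive (median -0.09). For this and the following lists, the share of positive values over all genes tested was 42.3% (median -0.04). Without WT replicate 1 it was 7509 of 16865 genes (median -0.02). The blue-light receptors CRY1 and CRY2 had the highest levels. CRY1 stood at 89.2, 87.5 and 83.6 FPKM in WT stems and 66.8, 77.6 and 73.3 FPKM in overexpressor stems, each overexpressor stem below each WT stem (log2 fold change -0.26, limma adjusted p = 0.805). CRY2 stood at 94.1 ± 8.87 and 88.6 ± 3.95 FPKM (mean ± SD, n = 3 each).

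The list of repressors and transport factors of the light signal, with COP1 and its SPA partners, had 2 of 12 tested members positive (median -0.19). Its members of highest level were DET1, a repressor of light responses, at 34.9 ± 9.16 FPKM in WT stems and 29.7 ± 3.14 FPKM in overexpressor stems, and FHY3, a phytochrome A signalling factor, at 22.1 ± 0.596 and 21.4 ± 0.747 FPKM (mean ± SD, n = 3 each).

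Partner transcription factors had 4 of 8 tested members positive (median 0.03), and without WT replicate 1 the count was 7 of 9 (median 0.25). BBX24, a B-box protein that restrains HY5, stood at 288, 55.7 and 56.9 FPKM in WT stems and 89.8, 132 and 102 FPKM in overexpressor stems, the order seen in PIF4. GBF1, a G-box binding bZIP factor, stood at 46.1 ± 6.33 and 50.7 ± 7.70 FPKM (mean ± SD, n = 3 each).

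Genes known as PIF targets in growth had another order of libraries than PIF4 and PIF5. Of 4 tested members 3 were positive with all libraries (median 0.53) and none without WT replicate 1 (median -0.09). IAA19, an auxin-induced repressor, stood at 3.31, 30.9 and 28.1 FPKM in WT stems and 41.2, 18.0 and 29.5 FPKM in overexpressor stems. XTH15, a wall-loosening enzyme, stood at 0.297, 12.5 and 15.4 FPKM in WT stems and 25.3, 7.73 and 12.6 FPKM in overexpressor stems. Both were lowest in WT replicate 1, where PIF4 and PIF5 were highest. Secondary wall markers were low in the same library, as given above for CESA4, and their part in these values was not tested.

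The list of HY5 targets in flavonoid synthesis had 1 of 4 tested members positive (median -0.44). Beside CHS, F3H, flavanone 3-hydroxylase, stood at 20.2, 8.39 and 8.85 FPKM in WT stems and 6.96, 13.8 and 5.28 FPKM in overexpressor stems, with overexpressor replicate 2 again the highest of its group. In chlorophyll synthesis all 6 tested members were positive (median 0.13, and 0.26 without WT replicate 1), none of them called in either of these fits. With sample quality weights 3 of the 6, CAO, GUN4 and PORB, were called upward, as were 4.45% of all genes. PORB, a protochlorophyllide oxidoreductase, stood at 145, 108 and 108 FPKM in WT stems and 165, 188 and 173 FPKM in overexpressor stems (log2 fold change 0.55, limma adjusted p = 0.805). CHLH, a magnesium chelatase subunit, stood at 124 ± 25.2 and 138 ± 18.5 FPKM (mean ± SD, n = 3 each).

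The other light-harvesting-like proteins, the family of the ELIPs, had 2 of 7 members positive (median -0.08) and narrow ranges. PSBS, which dissipates excess light as heat, stood at 731 ± 54.1 FPKM in WT stems and 689 ± 51.0 FPKM in overexpressor stems, and LIL3:2, a light-harvesting-like protein tied to chlorophyll synthesis, at 203 ± 2.05 and 193 ± 4.24 FPKM (mean ± SD, n = 3 each). PSBS thus ran at a level above that of ELIP1 in every library, and its highest value was 790 FPKM against a lowest of 641 FPKM, whereas ELIP1 ranged from 13.9 to 75.0 FPKM. The clock list, by comparison, had 6 of 8 tested members positive (median 0.24), and 8 of 8 without WT replicate 1 (median 0.96). In either of these limma fits 0 were called. With sample quality weights 5 of the 8 were called, all upward, as were 4.45% of all genes.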

How the data were processed

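RNA was measured in stems of 3 WT and 3 overexpressor plants. Per the labels' protocols, library construction used a NEBNext Ultra kit, and HISAT2 is named in the submitters' processing notes. Not given in the sources used here are its version, the counting program, the build and the use of strand. The authors deposited FPKM values for 24434 genes, and all identifiers matched RefSeq TAIR10.1. FPKM times the exon union of that annotation stepped in whole reads for 100% of values (tolerance 0.1 reads), which gave the depth.

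The test covered genes averaging at least 1 FPKM over the 6 libraries. It was run with limma 3.58.1 (R 4.3.3, intensity trend) on log2(FPKM + 1), a scale that understates changes of low genes. Tests were two-sided, with Benjamini-Hochberg adjustment over all genes tested and a threshold of 0.05, and were tried on simulated data first. An exact permutation test of 3 against 3 cannot go below p = 0.1. Each p-value reflects differences between plants and between library preparations.

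Exon matches used BLAST 2.17.0 and coding alignments MAFFT 7.526, and a near-identical copy meant 95% identity over 50% of the exons; none of the 10 genes had one. Protein sequences were not used here, so identities are of coding bases. Named genes were the 10 genes, called members of each list or else its 2 of highest mean FPKM, the 2 nearest profiles per gene, and GI, CCA1, LHY and TOC1. ELF4, LUX and other exceptions were named after their values were seen. The members and lists were chosen with earlier results of these data known. Alternatives covered pseudocount (0.1 and 0.01 FPKM), filter, median-ratio scaling, each library left out, replicate block, sample quality weights and voom on recovered reads.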

Additional observations from a re-analysis of the deposited data

How the results depend on the processing

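Of 124 refits of the 9 tested genes, 116 kept direction and side of the threshold. The 5 that gained a call all came from sample quality weights. These called 5 of the 9, 9 of the 51 pathway genes and 1768 of all 16870 genes, or 10.5%. The log2 fold change changed sign only as 1 library was left out: over these fits it ran from -0.00032 (without overexpressor replicate 3) to 0.20 for PIF3, from -0.40 to 0.05 (without WT replicate 1) for HY5 and from -0.33 to 0.04 (without WT replicate 1) for HYH. PIF4 ran from 0.24 to 1.42 and PIF5 from 0.05 to 1.16, both highest without WT replicate 1. No member was called in these fits or in those with another pseudocount, filter, scaling, block or voom.

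The count over all genes was 2, with 4 under no filter, 1 with voom and 1 to 23 as 1 library was left out, highest without WT replicate 1 and lowest without WT replicate 2 or any overexpressor library. With the replicate block it was 0 (395 genes at an unadjusted limma p under 0.05), and no member was called. Same-numbered samples did not deviate together (r of deviations from group means -0.603, -0.592 and 0.0282), so the numbers were not taken as pairs. HFR1, with 5 to 55 reads, is the gene whose depth limits it most. The cause of these shifts was not tested.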
